A study of Mus musculus with 40 samples.

Results

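A high-fat diet from weaning onward was compared with a low-fat diet in male mice whose mothers had eaten a low-fat diet. With the high-fat diet, heart transcripts of several fatty acid oxidation genes were higher. Those of 3 genes listed as cold-inducible RNA-binding proteins were lower. A small number of ion channel, contractile and vascular genes also changed. The comparison took in 20 of the 40 hearts of the series. LF_HF stands for the 10 hearts of offspring of dams fed a low-fat, high-carbohydrate diet (LF) that were moved to the high-fat diet (HF) at weaning, and LF_LF for the 10 hearts of offspring of such dams that stayed on the LF diet. All animals were chosen by their labels alone, maternal diet LF and a post-weaning diet of HF or LF, and every gene on the array was then described. All 20 were male C57BL/6J mice, were carried and suckled by LF dams until weaning at 3 weeks, and were killed as young adults after a fast. No animal carried an engineered allele or received a drug. The 2 diets differ in fat and in carbohydrate at the same time, so the comparison is of 1 whole diet with another. The animals came from 6 cages by the labels, 4 per group, and cages 4 and 11 gave animals to both diets (5 animals to each). RNA from a heart sample of each animal was hybridised to 1 Illumina MouseRef-8 array. The sample titles do not say which part of the heart was taken. In such samples, fewer cells of a type and less RNA per cell cannot be told apart.

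The adult heart draws most of its energy from fatty acids and changes its fuel with the supply. Long-chain fatty acids enter mitochondria as carnitine esters and are shortened there by beta-oxidation, while the pyruvate dehydrogenase complex admits carbon from glucose to the same citrate cycle. The nuclear receptor PPARalpha (peroxisome proliferator-activated receptor alpha) binds fatty acids and switches on genes of their uptake and oxidation, among them the pyruvate dehydrogenase kinase that restrains glucose use. High fat feeding and fasting are both known to raise PPARalpha target genes in the rodent heart.

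The question was which heart transcripts differed with the diet eaten after weaning when the dam had been on the LF diet. The labels also give the size of the animals. At 3 weeks, before the diets diverged, the future LF_HF animals weighed 9.18 g (SD 1, n = 10) and the LF_LF animals 9.57 g (SD 0.937, n = 10), a difference of -0.392 g (two-sided permutation test, adjusted p = 0.37). A later weight, which the labels name for weaning but whose values lie far above those at 3 weeks, was read as the weight at the end. By it LF_HF animals weighed 30.3 g (SD 1.86) and LF_LF animals 24.7 g (SD 1.15), and the lightest LF_HF animal, at 27.2 g, was heavier than the heaviest LF_LF animal, at 26.8 g. The difference of 5.63 g had a permutation p of 2e-05, the smallest that the resampling can give (adjusted p = 8e-05). LF_HF animals were also 2.6 mm longer (102 mm, SD 2.11, against 99.7 mm, SD 1.34, adjusted p = 0.011). Blood glucose was 222 mg per dl (SD 29.3) in LF_HF and 206 mg per dl (SD 34.6) in LF_LF animals (adjusted p = 0.37, 4 measures tested), and its ranges overlapped.

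Some hearts stood apart before any gene was compared. A score, the mean log2 difference of a marker list from the median of the 40 arrays, exceeded 1.5 for exocrine pancreas in LF_LF heart 13 (6.64) and LF_HF heart 208 (4.79), and for liver in LF_LF heart 101 (3.65) and LF_HF hearts 200 (1.85) and 201 (3.34). The score of cardiomyocyte markers, by which the tissue was checked, ran from -0.0276 to 0.0989 in LF_HF hearts and from -0.207 to 0.0825 in LF_LF hearts, with a mean difference of 0.102, and 0 of its 14 tested genes passed in limma while 4 were higher at an unadjusted p under 0.05. LF_LF hearts 100, 101, 133 and 134 had adipocyte scores of 0.765, 0.78, 1.86 and 0.9, against 0.101 at most in the other LF_LF hearts and 0.3 at most in LF_HF hearts. The same 4 hearts had the highest atrial scores of LF_LF hearts, 0.54, 0.832, 0.955 and 0.94. A pair of array sets, apparent in the dim probes left out of all tests, held 7 LF_HF and 5 LF_LF hearts and 3 LF_HF and 5 LF_LF hearts. Results without the hearts of high liver, pancreas or adipocyte score are given for some genes only. A gene said below to pass without each animal or each cage need not pass without those hearts. Nor need it pass over cage means, with 1 mean per cage and diet. Over cage means 4 probes passed, those of Ephx2, Fbp2, Scn4b and Cxcl14. Only 10 probes passed without the 5 hearts with liver or pancreas signal. A set of genes was drawn up for the text, and some of them are not described here. Of the 96 probes of this set that passed, 37 passed without the 4 hearts of high adipocyte score.

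Of 12645 probes with signal above the array median on at least 20 of the 40 arrays, 344 differed between LF_HF and LF_LF hearts at a 5% false discovery rate, which is 2.72% of those tested (limma, Benjamini-Hochberg over all tested probes). The HF diet went with higher levels for 163 probes (1.29%), standing for 137 genes, and with lower levels for 181 probes (1.43%), standing for 155 genes. At an unadjusted p under 0.05 there were 2755 probes. The differences were small: the median size among the probes that passed was 0.263 on the log2 scale, 15 exceeded 1.5-fold (12 higher and 3 lower) and 171 were under 1.2-fold. For 14 probes (0.111%), 7 higher and 7 lower, every LF_HF heart lay on 1 side of every LF_LF heart, and at least 5 LF_HF hearts lay beyond every LF_LF heart for 289 of the 344. The count of 289 covers only probes already chosen for their difference between these hearts. It was not made over all tested probes and adds no evidence of its own. The smallest adjusted p belonged to Tmem100, which was lower, and to Ephx2, Scn4b, Acot1 and Fbp2, which were higher.

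**Figure D1:**
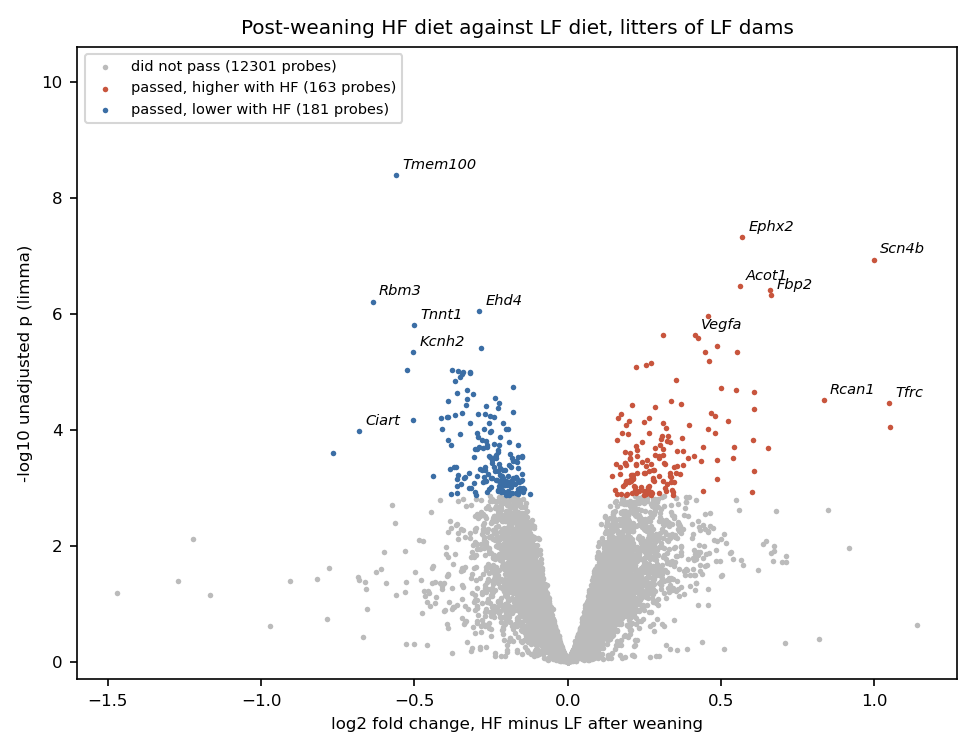
Log2 fold change (HF minus LF diet after weaning, horizontal axis) against -log10 of the unadjusted limma p (vertical axis) for the 12645 tested probes of hearts from litters of LF dams, 10 animals per diet. Red points (163 probes) passed and were higher with HF, blue points (181) passed and were lower, and the names mark genes described in the text, with Tfrc and Scn4b farthest to the right among those that passed.

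Several genes of mitochondrial fatty acid use rose, and none on the lists of PPARalpha targets and mitochondrial oxidation passed as lower. Of 25 tested PPARalpha targets, 9 rose and 0 fell by the best expressed probe, and the median of the list was 0.21, against -0.0027 over all 8749 tested genes, of which 1.41% rose and 1.47% fell. At an unadjusted p under 0.05, 10.9% of all tested genes were higher and 11.5% lower, and 48.9% had a positive difference, which is the background for such counts of a list. Of 27 genes of mitochondrial fatty acid oxidation, 7 rose and 0 fell, with a median of 0.13. Cpt1b, Cpt2, Etfdh, Hadhb, Slc25a20 and Acaa2 were members of both lists. Cytosolic Acot1, which splits long-chain acyl-CoA into free fatty acid and coenzyme A, was measured by 2 probes. The intensity of the brighter ran from 1649.8 through a median of 2069 to 2578 in LF_HF hearts and from 971 through 1365 to 1518 in LF_LF hearts. No LF_HF heart reached down to the highest LF_LF heart with either probe. The changes were 0.66 in log2 units (SE 0.092, adjusted p = 0.000966) and 0.56 in log2 units (SE 0.078, adjusted p = 0.000966). Its mitochondrial relative Acot2 rose by 0.43 in log2 units (SE 0.1, adjusted p = 0.0274) and peroxisomal Acot3 by 0.19 (adjusted p = 0.0383). The thioesterase genes lie close together and resemble each other in sequence, so that signal of 1 may reach the probe of another.

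The genes of each step of the carnitine shuttle rose. Cpt1b, the muscle enzyme that forms acylcarnitine at the outer membrane, ran from 4661 through a median of 5187 to 5658 in LF_HF hearts and from 3326 through 4318 to 4814 in LF_LF hearts, and 8 of the 10 LF_HF hearts exceeded every LF_LF heart. It rose by 0.31 in log2 units (SE 0.064, adjusted p = 0.0129), while a second, dimmer Cpt1b probe gave 0.28 (adjusted p = 0.0547). Slc25a20, the carrier that takes acylcarnitine through the inner membrane, ran from 4860.4 through a median of 5482 to 5847 in LF_HF hearts and from 3776 through 4629 to 5112 in LF_LF hearts, and rose by 0.29 in log2 units (SE 0.056, adjusted p = 0.0102). Cpt2, which returns the fatty acid to coenzyme A in the matrix, ran from 2746 through a median of 3139 to 3421 in LF_HF hearts and from 1804 through 2497 to 2920.1 in LF_LF hearts. The lowest LF_HF heart lay below the highest LF_LF heart, and the other 9 lay above every LF_LF heart. The change of Cpt2 was 0.35 in log2 units (SE 0.063, adjusted p = 0.0056), or 1.28-fold. Crat, which exchanges acetyl groups between coenzyme A and carnitine, rose by 0.30 (adjusted p = 0.0205) with 1 of 3 probes, and the other probes gave 0.19 (adjusted p = 0.067) and 0.13 (adjusted p = 0.315).

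Within the beta-oxidation spiral Hadhb, the thiolase subunit of the trifunctional protein, was among the brightest transcripts. It ran from 13949 through a median of 15622 to 16202 in LF_HF hearts and from 9508 through 11960.5 to 14885 in LF_LF hearts, with 6 LF_HF hearts above every LF_LF heart, and rose by 0.32 in log2 units (SE 0.071, adjusted p = 0.0188). Eci2, an isomerase needed for unsaturated fatty acids, rose by 0.48 in log2 units (SE 0.1, adjusted p = 0.0157), and Etfdh, which passes electrons from the acyl-CoA dehydrogenases to ubiquinone, by 0.25 (adjusted p = 0.0344). Acaa2, a mitochondrial thiolase, rose by 0.28 (adjusted p = 0.0323) with 1 of its 4 tested probes, while the others lay between 0.049 and 0.084 and did not pass. Fabp3, which carries fatty acids through the cytosol of cardiomyocytes, rose by 0.15 (adjusted p = 0.0363). It stood at 31454.1, the highest intensity of the table, in 4 LF_HF hearts and in 0 LF_LF hearts, so that those 4 values are tied. Of the members that did not pass, Hadh gave 0.55 (adjusted p = 0.0532), Acadl 0.46 (adjusted p = 0.0814) and Cd36, the fatty acid translocase, 0.30 (adjusted p = 0.0928) with a dim probe. Hadh and Acadl were chosen after their values were seen, as large positive differences among the members that did not pass. Ucp3, a mitochondrial carrier of muscle induced by fasting, gave -0.24 (adjusted p = 0.199), and Angptl4, a secreted inhibitor of lipoprotein lipase, 0.15 (adjusted p = 0.55). Of the receptor and its coactivators, Ppara gave -0.011 with a standard error of 0.047, at intensities close to the array median, and Ppargc1a -0.087 (adjusted p = 0.393). Med1, a mediator subunit that binds nuclear receptors, rose by 0.30 (adjusted p = 0.0475) with 1 of 3 probes.

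Both Acot1 probes passed without each of the 20 animals and without each of the 6 cages, with adjusted p up to 0.00272 and 0.0251. Over cage means neither Acot1 probe passed (0.0794 for the brighter and 0.113 for the other). Cpt2, Cpt1b, Slc25a20, Pdk4, Hadhb, Eci2 and Crat passed without each animal but not without each cage. The adjusted p of Cpt2 reached 0.0791 and that of Pdk4 0.0621, in both cases without cage 11, and that of Slc25a20 0.0853 and Cpt1b 0.0883, both of which were lost without cage 4 and without cage 11. Acot2 was lost without LF_HF animal 209 (0.0519). Acaa2, Etfdh, Fabp3, Acot3 and Med1 were lost without any 1 of 7, 9, 11, 11 and 15 animals, with adjusted p of at most 0.0613, 0.0647, 0.0753, 0.0807 and 0.0927. Without the 5 hearts with liver or pancreas signal, both Acot1 probes (0.0199), Cpt2 (0.0199) and Slc25a20 (0.0467) still passed and the other members did not. Without the 4 LF_LF hearts of high adipocyte score, Cpt1b (0.0763), Slc25a20 (0.0602), Hadhb (0.0585) and Pdk4 (0.0579) did not pass. Nor did Acaa2, Etfdh, Fabp3 and Med1, while both Acot1 probes, Cpt2, Eci2 and Crat did. The cardiomyocyte score moved in the same direction as these genes, and its part in them was not tested.

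**Figure D2:**
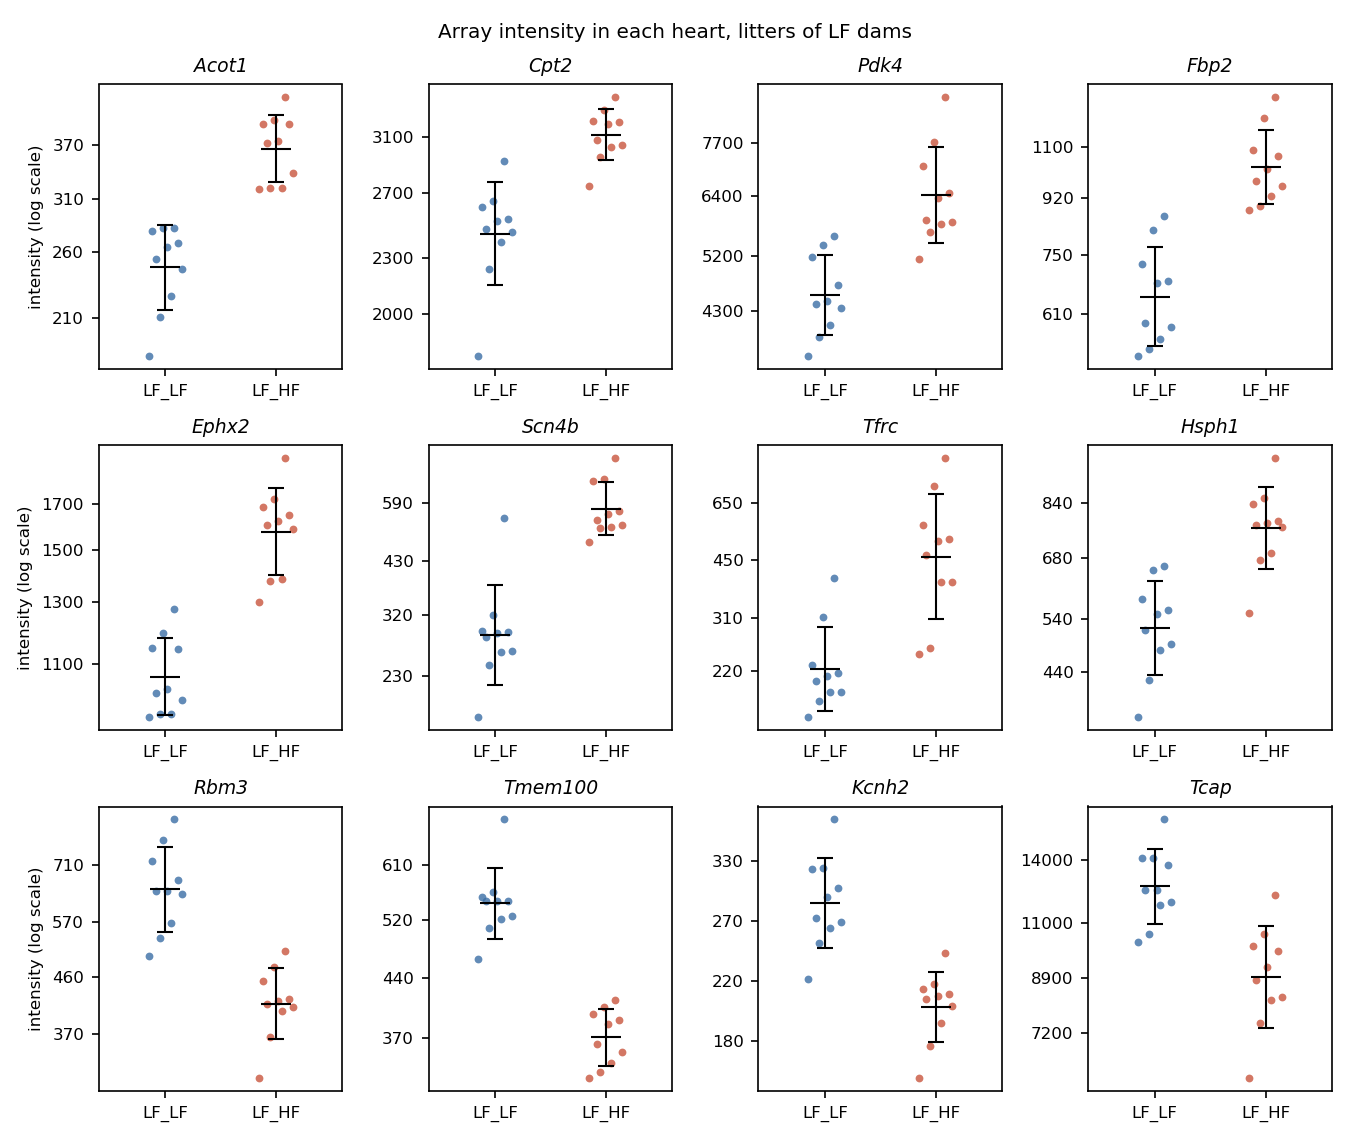
Array intensity (vertical axis, log scale) of 12 genes in each heart, LF_LF in blue and LF_HF in red, 10 animals each. Points are animals, the horizontal bar is the mean of the log2 values and the whiskers are 1 SD. For each gene the probe with the smallest p is drawn, and the groups are fully apart for Acot1, Fbp2, Ephx2 and Tmem100.

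PPARalpha binds, with its partner, to pairs of the hexamer AGGTCA spaced by 1 base. The hexamer on either strand was sought in RefSeq promoters (assembly GRCm38.p6, 250 bases before to 50 after a start of transcription). It was found in 16.3% of all 32851 promoters, in 12.7% of the 9228 promoters of tested genes, in 21.3% of the 136 promoters of genes that rose and in 7.82% of the 179 promoters of genes that fell. Among the 21 promoters found for the tested PPARalpha targets, 7 held it, and none of the 8 promoters of members that rose held it. A pair of hexamers 1 base apart occurred in 13 of all promoters and in 0 of these. Sequence outside this window was not searched. The promoters of Cd36 and Ucp3, which were on the list and did not pass, held the hexamer, shown in capitals with its surroundings.

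Cd36, chr5:17836079-17836146, strand minus: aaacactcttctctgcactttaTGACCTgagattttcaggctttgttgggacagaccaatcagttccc
Ucp3, chr7:100472802-100472887, strand plus: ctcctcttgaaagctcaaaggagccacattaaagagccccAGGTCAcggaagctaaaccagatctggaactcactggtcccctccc
Ucp3, chr7:100472907-100472992, strand plus: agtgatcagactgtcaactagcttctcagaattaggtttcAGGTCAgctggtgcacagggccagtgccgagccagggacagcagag

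Outside mitochondria the changes in lipid genes were mixed. Pex11a, which drives the division of peroxisomes, ran from 335 through a median of 347 to 410.1 in LF_HF hearts and from 239 through 293 to 307 in LF_LF hearts, the groups did not overlap, and it rose by 0.31 in log2 units (SE 0.049, adjusted p = 0.00245). Its other probes gave 0.22 (adjusted p = 0.059) and 0.12 (adjusted p = 0.525). Pex19, a chaperone of peroxisomal membrane proteins, rose with both probes, by 0.18 (adjusted p = 0.0159) and 0.49 (adjusted p = 0.0377), and of 14 tested genes of peroxisomal oxidation 1 rose by the best expressed probe and 0 fell. Ephx2, soluble epoxide hydrolase, which degrades epoxides of arachidonic acid, ran from 1301 through a median of 1612 to 1923 in LF_HF hearts and from 951 through 1021 to 1275 in LF_LF hearts. The groups were apart, and Ephx2 rose by 0.57 in log2 units (SE 0.07, adjusted p = 0.000304), or 1.48-fold. Agpat3, which adds a fatty acid to lysophosphatidic acid, rose by 0.39 (adjusted p = 0.0257). Plin4, a coat protein of lipid droplets, ran from 1329 through a median of 1634 to 2117 in LF_HF hearts and from 1926 through 2107 to 2685 in LF_LF hearts, with 8 LF_HF hearts below every LF_LF heart, and fell by 0.39 in log2 units (SE 0.079, adjusted p = 0.0119). Lpin1, a phosphatidate phosphatase that also acts as a coactivator, fell by 0.21 (adjusted p = 0.037). The 24 tested genes of lipid droplets and triglyceride turnover had a median of -0.019, with 1 higher and 2 lower. No gene of fatty acid and cholesterol synthesis passed (27 tested, median -0.046, 2 higher and 5 lower at an unadjusted p under 0.05). Scd1, the delta-9 desaturase, had a log2 fold change of -0.97 with a standard error of 0.81, since it ran from 165.0 to 20429 among LF_LF hearts, and Adipoq, an adipocyte hormone, gave -1.27 (adjusted p = 0.208). The adipocyte score of LF_LF hearts ran up to 1.86, its mean difference was -0.375, and without the 4 LF_LF hearts above 0.5 Plin4 gave -0.40 (adjusted p = 0.0486), Scd1 0.96 and Adipoq 0.16, so that the sign of the last pair turned. Ephx2 and the first Pex11a probe passed without each animal and each cage. Plin4 passed without each animal but not without cages 4, 9 or 11 (adjusted p up to 0.123). Agpat3 was lost without LF_HF animal 200 (0.0501), and Lpin1 and the more strongly changed Pex19 probe without any of 12 single animals.

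Single genes that direct pyruvate, fructose phosphates and glucose uptake passed, in both directions. Of 11 tested genes of pyruvate dehydrogenase and its regulators 1 rose and 1 fell, 9 did not pass, and the median was 0.088. Pdk4, the kinase that inactivates pyruvate dehydrogenase, ran from 5158 through a median of 6134 to 9009.7 in LF_HF hearts and from 3679.9 through 4432 to 5584 in LF_LF hearts, with 9 LF_HF hearts above every LF_LF heart. It rose by 0.50 in log2 units (SE 0.092, adjusted p = 0.00711), or 1.41-fold. Pdp2, a phosphatase that undoes this step, fell by 0.37 (adjusted p = 0.0302) with 1 of 2 probes. Fbp2, the muscle form of fructose bisphosphatase, which opposes phosphofructokinase, ran from 879 through a median of 996 to 1309.8 in LF_HF hearts and from 526 through 636 to 861 in LF_LF hearts. No value was shared between the groups, and Fbp2 rose by 0.66 in log2 units (SE 0.094, adjusted p = 0.000995), or 1.58-fold. Pfkfb2, the cardiac enzyme that makes and degrades fructose 2,6-bisphosphate, rose by 0.40 (adjusted p = 0.0136), and 2 LF_HF hearts lay above every LF_LF heart. Slc2a1, the glucose transporter that does not need insulin, fell by 0.34 in log2 units (SE 0.069, adjusted p = 0.0116), and Phkg1, the catalytic subunit of muscle phosphorylase kinase, by 0.38 (adjusted p = 0.0314). Slc2a4, the insulin-dependent transporter, gave -0.12 (adjusted p = 0.276). Among 32 tested genes of glycolysis, glucose uptake and glycogen 2 rose and 2 fell, with a median of 0.0017. Of 22 genes of insulin signalling none passed at this threshold, and 3 were higher and 2 lower at an unadjusted p under 0.05. Ppm1k, the phosphatase that activates breakdown of branched-chain amino acids, fell by 0.27 (adjusted p = 0.037), the only 1 of 16 on its list. Fbp2 passed without each animal, each cage and the 5 hearts with other tissue (adjusted p = 0.0467), and also over cage means (0.0342). Pdk4 gave 0.47 without those 5 hearts and did not pass (0.127), nor did it without cage 11 (0.0621). Pfkfb2 and Slc2a1 passed without each animal but not without cage 4, 8 or 9 (up to 0.0806) and cage 4 or 11 (up to 0.163), and Pdp2, Phkg1 and Ppm1k were lost without any 1 of 7, 6 and 11 single animals.

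In the citrate cycle and the respiratory chain no gene passed. None of 69 tested respiratory chain genes passed in limma, though 14 were higher and 0 lower at an unadjusted p under 0.05, and 55 had a positive difference, with a median of 0.044. Over all 8749 tested genes 954 were higher and 1008 lower unadjusted, and 4274 were positive. Likewise 0 of 22 citrate cycle genes passed (6 higher and 2 lower unadjusted, median 0.084). Cycs, cytochrome c, gave 0.71 (adjusted p = 0.136), and Sucla2, a succinyl-CoA ligase subunit, 0.45 (adjusted p = 0.0689), both with the more changed probe where there were several and both chosen after their values were seen. In litters of HF dams the medians of these 2 lists were 0.021 and 0.033.

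**Figure D3:**
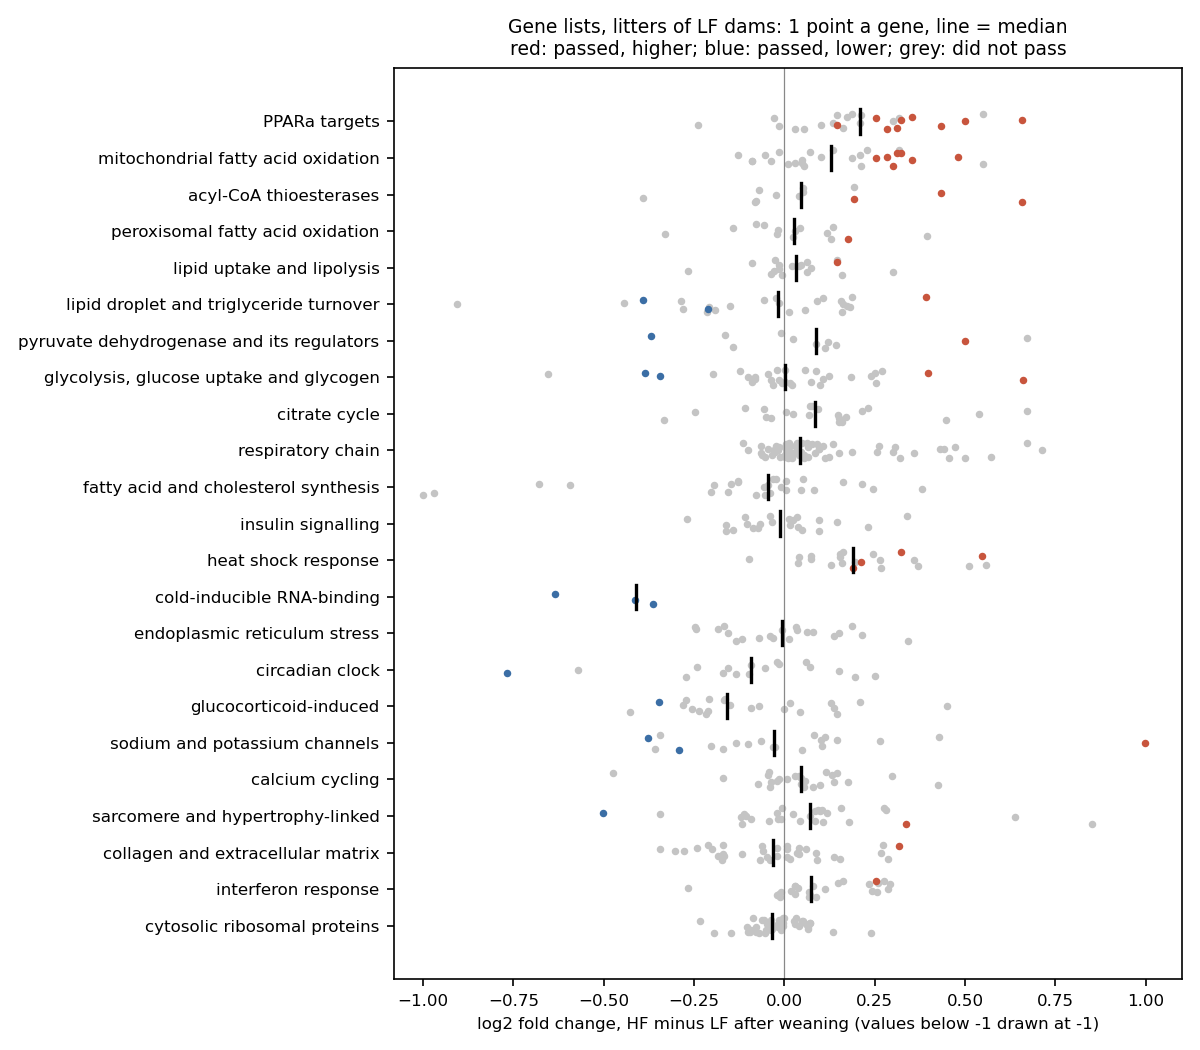
Log2 fold change (HF minus LF diet after weaning, litters of LF dams, horizontal axis) of every tested gene of 23 gene lists, 1 point per gene by its best expressed probe. The black line is the median of the list, red points passed and were higher, blue points passed and were lower and grey points did not pass. Values below -1 are drawn at -1. The lists of PPARalpha targets and of the heat shock response lie mostly to the right of 0 (medians 0.21 and 0.19), and the 3 cold-inducible genes to the left.

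Genes of the action potential included 1 of the strongest rises and a fall seen with 2 probes. Scn4b, a beta subunit of the cardiac sodium channel, ran from 479 through a median of 548 to 755 in LF_HF hearts and from 183 through 287 to 543 in LF_LF hearts. LF_LF heart 14 stood at 543 while the next LF_LF heart stood at 321, so that 5 LF_HF hearts exceeded every LF_LF heart and 10 of 10 exceeded the LF_LF median. Scn4b rose by 1.00 in log2 units (SE 0.13, adjusted p = 0.000493). Kcnh2, the pore of the rapid delayed rectifier potassium channel, was lower with both probes. The probe whose groups did not overlap ran from 231 through a median of 262 to 293 in LF_HF hearts and from 308 through 321 to 428 in LF_LF hearts and changed by -0.38 in log2 units (SE 0.066, adjusted p = 0.00478), and the other gave -0.50 (adjusted p = 0.00327). Abcc8, a sulphonylurea receptor of ATP-sensitive potassium channels, fell by 0.29 (adjusted p = 0.021). Of 20 tested sodium and potassium channel genes, 1 rose and 2 fell, with a median of -0.029. Kcne1, a potassium channel subunit, gave -0.36 (adjusted p = 0.0541) and was chosen after its value was seen. Atrial tissue varied between hearts: the atrial score ran from -1.74 to 0.189 with a median of -0.455 in LF_HF hearts and from -1.75 to 0.955 with a median of -1.13 in LF_LF hearts, while its mean difference, -0.113, had the opposite sign. With that score as a covariate 638 probes passed. All 344 were among them, and so were those of Scn4b, Kcnh2 and Abcc8. The effect of the score itself on single channel genes was not tested. Scn4b passed without each animal, without each cage, over cage means (0.0342) and without the 5 hearts with other tissue (0.0199). The more strongly changed Kcnh2 probe passed without each cage, the other was lost without cage 11 (0.0623), and Abcc8 was lost without cage 4, 9 or 11 (up to 0.136). Without the 5 hearts with other tissue neither Kcnh2 probe (0.0822 and 0.079) nor Abcc8 (0.184) passed.

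Among genes of the sarcomere and of mechanical load, a few changed strongly and most did not. Rcan1, a feedback inhibitor of calcineurin that calcineurin itself induces, was higher with both probes. The more responsive ran from 139.9 through a median of 219 to 343 in LF_HF hearts and from 102 through 120.0 to 217 in LF_LF hearts, with 5 LF_HF hearts above the highest LF_LF heart, and gave 0.84 in log2 units (SE 0.16, adjusted p = 0.00919). The other gave 0.34 (adjusted p = 0.037). Ankrd23, a titin-binding ankyrin repeat protein of muscle, ran from 988 through a median of 1418 to 1614 in LF_HF hearts and from 636 through 916 to 1230.4 in LF_LF hearts and rose by 0.61 in log2 units (SE 0.11, adjusted p = 0.00753). Tnfrsf12a, the receptor of the cytokine TWEAK, ran from 354 through a median of 538 to 681 in LF_HF hearts and from 251 through 334 to 479.7 in LF_LF hearts and rose by 0.60 in log2 units (SE 0.13, adjusted p = 0.0186). Tcap, telethonin, which caps titin at the Z-disc, was 1 of the brightest transcripts to fall. It ran from 6054 through a median of 9052 to 12249 in LF_HF hearts and from 10225 through 12482 to 16373 in LF_LF hearts, with 8 LF_HF hearts below every LF_LF heart, and changed by -0.50 in log2 units (SE 0.1, adjusted p = 0.0125). Tnnt1, the slow skeletal troponin T, ran from 248 through a median of 295 to 327 in LF_HF hearts and from 299 through 419 to 508 in LF_LF hearts and changed by -0.50 in log2 units (SE 0.077, adjusted p = 0.00199). It was on the skeletal muscle marker list, whose score differed by -0.0271. Of 29 tested sarcomere and hypertrophy-linked genes, 1 rose and 1 fell by the best expressed probe, with a median of 0.071. The natriuretic peptide gene Nppb gave 0.64 (adjusted p = 0.111), with intensities from 1333 to 4405 in LF_HF and from 907 to 2788 in LF_LF hearts, and slow myosin Myh7 gave -0.0078 (SE 0.085). None of 25 calcium cycling genes passed, with 3 higher and 1 lower at an unadjusted p under 0.05. Rcan1 (first probe), Ankrd23, Tnfrsf12a, Tcap and Tnnt1 passed without each animal. Tnnt1 also passed without each cage, while Rcan1 and Ankrd23 were lost without cage 4 or 9, Tcap without cage 4, 8, 9 or 11 and Tnfrsf12a without cage 4, 6, 8 or 9 (adjusted p up to 0.0806, 0.101, 0.101 and 0.129). The second Rcan1 probe was lost without any 1 of 11 single animals. Rcan1 (first probe), Ankrd23, Tnfrsf12a, Tcap and Tnnt1 did not pass without the 5 hearts with other tissue (adjusted p from 0.0822 to 0.178). Rcan1 (first probe, 0.0551), Ankrd23 (0.0551) and Tnfrsf12a (0.104) did not pass without the 4 LF_LF hearts of high adipocyte score, while Tcap and Tnnt1 did.

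Some heat shock genes rose and the 3 tested cold-inducible RNA-binding protein genes fell. These 3 were the whole of their list. It was chosen with earlier results of these data known, so their shared direction adds no evidence of its own. Of 22 heat shock response genes 4 rose and 0 fell, 14 were higher and 0 lower at an unadjusted p under 0.05, and the median was 0.19. Hsph1, a large chaperone that recharges HSP70 with nucleotide, ran from 552 through a median of 775 to 993 in LF_HF hearts and from 371 through 534 to 659.8 in LF_LF hearts, with 9 LF_HF hearts above every LF_LF heart, and rose by 0.55 in log2 units (SE 0.1, adjusted p = 0.00728). The small heat shock protein Hspb1 rose by 0.32 (adjusted p = 0.0408), the co-chaperone Stip1, which links HSP70 to HSP90, by 0.21 (adjusted p = 0.0479), and Ahsa1, which stimulates the ATPase of HSP90, by 0.19 (adjusted p = 0.0494). The mitochondrial chaperonins Hspd1 and Hspe1 gave 0.36 (adjusted p = 0.0572) and 0.51 (adjusted p = 0.0945), Chordc1, a partner of HSP90, 0.16 (adjusted p = 0.281), and the inducible Hspa1a 0.072 (adjusted p = 0.691). Hspd1, Hspe1, Chordc1 and Hspa1a were chosen after their values were seen. Hsph1 passed without each animal but not without cage 4 or 11 (0.0623). Hspb1, Stip1 and Ahsa1 were lost without any 1 of 10, 14 and 16 single animals, with adjusted p up to 0.0885, 0.0974 and 0.103.

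The heat shock factor binds repeats of GAA in alternating orientation. The form GAANNTTCNNGAA, on either strand, was sought in the same RefSeq promoters after the values had been seen. It occurred in 5 of the 23 promoters found for the tested heat shock genes (21.7%) and in 198 of all 32851 promoters (0.603%). Those promoters belonged to Hsph1, Hspd1, Hspe1 and Chordc1, of which Hsph1 passed. The element is shown in capitals, and further elements overlap it in Hspd1 and Chordc1. The promoter of Hspe1 overlaps that of Hspd1 on the opposite strand and holds the same elements. The 5 promoters are therefore not 5 separate stretches of sequence.

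Hsph1, chr5:149636266-149636340, strand minus: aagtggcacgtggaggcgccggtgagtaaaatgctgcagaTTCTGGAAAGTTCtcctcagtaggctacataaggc
Hspd1, chr1:55088024-55088116, strand minus: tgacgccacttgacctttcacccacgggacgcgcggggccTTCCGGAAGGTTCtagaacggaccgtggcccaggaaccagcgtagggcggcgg
Chordc1, chr9:18292223-18292315, strand plus: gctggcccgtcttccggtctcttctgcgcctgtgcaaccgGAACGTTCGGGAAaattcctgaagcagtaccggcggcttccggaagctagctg

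Rbm3, an RNA-binding protein induced by mild cooling, was the largest fall that passed after the clock gene Ciart. It ran from 312 through a median of 417 to 509.9 in LF_HF hearts and from 498 through 641 to 846 in LF_LF hearts, with 9 LF_HF hearts below every LF_LF heart. The change was -0.64 in log2 units (SE 0.092, adjusted p = 0.00112), and a second, dim probe gave 0.12 (adjusted p = 0.463). Cirbp, its relative, fell by 0.36 (adjusted p = 0.0419), and Srsf5, a splicing factor whose transcript also responds to temperature, fell with both probes, by 0.41 (adjusted p = 0.0119) and 0.39 (adjusted p = 0.0186). Rbm3 passed without each animal and each cage but not over cage means (0.113), and gave -0.63 (adjusted p = 0.0616) without the 5 hearts with other tissue. Without those hearts neither Cirbp (0.0887) nor Srsf5 (0.093 and 0.215) passed. Cirbp did not pass with the array set as a term (0.0628). Srsf5 passed without each animal but was lost without cage 9 or 11 (up to 0.101), its other probe without cage 4, 8, 9 or 11 (up to 0.132), and Cirbp was lost without any 1 of 13 single animals. Among other stress genes, none of 21 endoplasmic reticulum stress genes passed (2 higher and 4 lower unadjusted, median -0.0071). Of 16 immediate early genes Csrnp1, a transcription factor, fell, by 0.26 (adjusted p = 0.0354). Of 30 antioxidant genes Gpx4, which reduces lipid peroxides, rose by 0.26 (adjusted p = 0.0475) while Gstm2, a glutathione transferase, and Prdx4, a peroxiredoxin of the secretory pathway, fell. Gstm2 gave -0.25 (adjusted p = 0.0155), -0.25 (adjusted p = 0.0157) and -0.27 (adjusted p = 0.0302) with its 3 probes and has close relatives that may add signal, and Prdx4 gave -0.30 (adjusted p = 0.0219). Gpx4 was lost without any 1 of 14 single animals and Csrnp1 without any of 8.

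In the circadian clock, 1 of 17 tested genes passed. Ciart, a repressor of the CLOCK and BMAL1 activators, fell with both probes. It ran from 98.3 through a median of 147 to 202 in LF_HF hearts and from 168 through 231 to 376 in LF_LF hearts and changed by -0.68 in log2 units (SE 0.14, adjusted p = 0.0155), and the other probe gave -0.77 (adjusted p = 0.0239). Every LF_HF heart lay below the LF_LF median with both, and 8 lay below every LF_LF heart with the first. Dbp, a transcription factor whose level follows the clock, ran from 1043 through a median of 2651 to 3517 in LF_HF hearts and from 2848 through 3448 to 5046 in LF_LF hearts and gave -0.57 (adjusted p = 0.0575). Per2, which represses the same activators, gave -0.24 (adjusted p = 0.157) and Nr1d1, REV-ERBalpha, -0.093 (adjusted p = 0.516). A second Per2 probe was also lower, a second Nr1d1 probe was higher, and neither passed. The list had a median of -0.093, and 6 genes were lower and 2 higher at an unadjusted p under 0.05. Of 22 genes induced by glucocorticoids, 1 fell. This was Sult1a1, a sulphotransferase, with -0.35 (adjusted p = 0.0404), and the median of the list was -0.16. Fkbp5, a chaperone of the glucocorticoid receptor and the usual marker of its activity, gave -0.17 (adjusted p = 0.416). The receptor gene Nr3c1, chosen after its value was seen, rose by 0.25 (adjusted p = 0.0489). The time of day of death of each animal was not among the labels used here, and its part in the clock genes was not tested. Ciart passed without each animal but was lost without cage 4, 8, 9 or 11 (up to 0.127), and Sult1a1 and Nr3c1 were lost without any 1 of 12 and 14 single animals.

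The largest fold change among the probes that passed belonged to Tfrc, the transferrin receptor, by which cells take up iron. With 1 probe it ran from 246 through a median of 487 to 868 in LF_HF hearts and from 163 through 209 to 401 in LF_LF hearts and rose by 1.05 in log2 units (SE 0.2, adjusted p = 0.00961), or 2.07-fold, and the other gave 1.05 (adjusted p = 0.0141). The spread within LF_HF hearts was wide, 6 of them lay above every LF_LF heart, and the highest was heart 201, which carried liver signal. Without the 5 hearts with other tissue the change was 0.71 (adjusted p = 0.163). Hjv, hemojuvelin, a coreceptor of iron signalling, rose by 0.20 (adjusted p = 0.0257), and the other 15 of 17 tested iron genes did not pass. Erythroid markers scored 0.125 higher in LF_HF hearts, with 0 of 5 genes passing, and their part in Tfrc was not tested. Egln3, an oxygen-sensing hydroxylase that hypoxia induces, rose with both probes, by 0.55 in log2 units (SE 0.092, adjusted p = 0.00327) and 0.31 (adjusted p = 0.0219). Vegfa, the main endothelial growth factor, ran from 2209.6 through a median of 2397 to 2778 in LF_HF hearts and from 1504 through 1799 to 2232 in LF_LF hearts, with 9 LF_HF hearts above every LF_LF heart, and rose by 0.41 in log2 units (SE 0.066, adjusted p = 0.00245). Vegfa was chosen after its values were seen, as were Esm1 and Bdnf. Esm1, an endothelial proteoglycan that VEGF induces, rose by 0.34 (adjusted p = 0.0461), and Bdnf, a neurotrophin, by 0.45 (adjusted p = 0.00327). Both Tfrc probes passed without each animal. The first was lost without cage 4, 9 or 11 (up to 0.131) and the other without cage 4, 8, 9 or 11 (up to 0.151). The stronger Egln3 probe, Vegfa and Bdnf passed without each animal and each cage. Hjv was lost without animals 134 or 200 (up to 0.0516), and Esm1 without any of 14 animals. The stronger Egln3 probe (0.104), Vegfa (0.0822) and Bdnf (0.0822) did not pass without the 5 hearts with other tissue.

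Tmem100, a membrane protein of arterial endothelium induced by BMP signalling, had the smallest p of the comparison. It ran from 329.5 through a median of 375 to 413 in LF_HF hearts and from 465 through 549 to 696 in LF_LF hearts, so that the groups were apart, and changed by -0.56 in log2 units (SE 0.06, adjusted p = 5.22e-05), which is 1.47-fold lower. It was 1 of 17 tested endothelial markers, of which 0 rose and 1 fell, and the endothelial score differed by -0.00226. It did not pass over cage means (0.0771), and passed with an adjusted p of 0.00138 without the 5 hearts with other tissue and of at most 0.00223 without any 1 cage. Ehd4, which recycles membrane from endosomes, also had groups that did not overlap. It ran from 3713 through a median of 4032 to 4515 in LF_HF hearts and from 4531 through 5031 to 5437 in LF_LF hearts and changed by -0.29 in log2 units (SE 0.043, adjusted p = 0.00144), and was chosen after its values were seen. Pkig, an inhibitor of protein kinase A, ran from 522 through a median of 624 to 769 in LF_HF hearts and from 729 through 919 to 1196 in LF_LF hearts and changed by -0.52 in log2 units (SE 0.091, adjusted p = 0.00478), but its other probes gave -0.22 (adjusted p = 0.0895) and 0.22 (adjusted p = 0.301). Among the remaining strongest falls, Pirt, a membrane protein of sensory neurons, fell with both probes, by 0.39 (adjusted p = 0.0119) and 0.22 (adjusted p = 0.0172). Scin, an actin-severing protein, gave -0.39 (adjusted p = 0.00919), Maged2, an X-linked MAGE family gene, -0.41 (adjusted p = 0.0147) and Tmem51, a membrane protein, -0.44 (adjusted p = 0.0363). The score of nerve and Schwann cell markers differed by -0.0758, and 0 of its 3 tested genes had a positive difference (median -0.18). Pmp22, the only 1 of them with a probe that passed, gave -0.33 (adjusted p = 0.0091). A second Pmp22 probe gave -0.044 (adjusted p = 0.815). The part of these markers in Pirt was not tested. Maged2 was highest in the 4 LF_LF hearts with a high adipocyte and atrial score (493.1, 533.9, 488.4 and 548.5, against 347.3 to 460.5 in the other LF_LF hearts) and gave -0.25 (adjusted p = 0.106) without them. Tmem51 gave -0.18 (adjusted p = 0.123) without them and was lost without any 1 of 10 single animals, and the others named here passed without each. Ehd4 also passed without each cage (0.0306 at most), while Pkig was lost without cage 9 (0.0518), Scin without cage 9 or 11 (up to 0.127), Maged2 without cage 4, 9 or 11 (up to 0.0984), Pirt without cage 4 or 9 (up to 0.0937) and its other probe without cage 4, 9 or 11 (up to 0.148).

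Ccl7, Ccl12 and Cxcl14, single chemokine genes, rose, and no list of chemokines was counted. Ccl7, a chemoattractant of monocytes, ran from 126 through a median of 153 to 307 in LF_HF hearts and from 89.9 through 108 to 136 in LF_LF hearts, with 7 LF_HF hearts above every LF_LF heart, and rose by 0.65 in log2 units (SE 0.15, adjusted p = 0.0213). Ccl12, which lies beside it in the same cluster and resembles it, gave 0.52 (adjusted p = 0.0125) with 1 probe and 0.25 (adjusted p = 0.0852) with the other. Cxcl14 ran from 176 through a median of 211 to 239 in LF_HF hearts and from 117 through 148 to 189 in LF_LF hearts and rose by 0.49 in log2 units (SE 0.079, adjusted p = 0.00326). Ccl12 and Cxcl14 were chosen after their values were seen. With the lowest intensity of the table subtracted, which widens the folds of dim probes, Ccl7 gave 0.84 and Cxcl14 0.60. Leukocyte markers did not pass in any of 16 tested genes (3 higher and 1 lower unadjusted), and their score differed by 0.0669. Of 26 interferon response genes Isg15, a ubiquitin-like modifier, rose by 0.25 (adjusted p = 0.0487) and the median was 0.074. Of 36 genes of collagen and extracellular matrix Serpinh1, the collagen chaperone, rose by 0.32 (adjusted p = 0.0288), with a list median of -0.031. None of 10 complement genes passed (0 higher and 1 lower unadjusted), nor of 46 cytosolic ribosomal protein genes (1 higher and 5 lower, median -0.035). Mcm2, a replication helicase subunit, gave 0.16 (adjusted p = 0.029), and Cdc20, a mitotic activator, -0.15 (adjusted p = 0.0252) and -0.029 (adjusted p = 0.722) with its 2 probes, all close to background. Slc38a2, an amino acid transporter, rose by 0.61 (adjusted p = 0.0323) with 1 probe while the other gave 0.053 (adjusted p = 0.663), and Fam220a by 0.60 (adjusted p = 0.047) while its other probe gave -0.011 (adjusted p = 0.95). Ccl7, Ccl12 and Cxcl14 passed without each animal. Cxcl14 passed without each cage and over cage means (0.0342), Ccl12 was lost without cage 11 (0.15) and Ccl7 without cage 4, 8, 9 or 11 (up to 0.137). Without the 5 hearts with other tissue Cxcl14 (0.0887), Ccl12 (0.104) and Ccl7 (0.178) did not pass. Ccl7 (0.0963) and Ccl12 (0.0915) also did not pass without the 4 LF_LF hearts of high adipocyte score, while Cxcl14 did. Isg15, Serpinh1, Slc38a2, Fam220a and Mcm2 were lost without any 1 of 16, 7, 10, 15 and 6 single animals, and Cdc20 without animal 207 (0.0504).

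The same diet contrast was available in offspring of HF dams, in 20 other hearts (10 HF_HF and 10 HF_LF). There 109 probes passed (0.862% of those tested). The LF-dam and HF-dam litters shared 58 calls, 34 higher and 24 lower in both and 0 in opposite directions, which is 16.9% of the calls in litters of LF dams and 53.2% of those in litters of HF dams. The interaction of maternal and post-weaning diet, tested over all 40 arrays, gave 0 calls (0%), a smallest adjusted p of 0.943 and 431 probes at an unadjusted p under 0.05. Among 12645 tested probes that is fewer than chance alone would pass at this threshold. Of the 344 probes, 324 (94.2%) had the same sign in litters of HF dams, against 66% of all tested probes. The 163 higher probes had a median of 0.282 in litters of LF dams and 0.171 in those of HF dams, and the 181 lower probes medians of -0.241 and -0.116. Since the 344 were chosen by their size in litters of LF dams, the 2 medians of each set are not an even comparison. Over all 12645 tested probes the 2 fold changes correlated with a Pearson r of 0.599 and a Spearman rho of 0.504, across probes that are not independent and on arrays normalised together.

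Genes that passed in both sets of litters included Acot1 (0.66 in litters of LF dams and 0.83 in litters of HF dams), Scn4b (1.00 and 1.17), Fbp2 (0.66 and 0.76), Pdk4 (0.50 and 0.72), Cpt2 (0.35 and 0.33), Ephx2 (0.57 and 0.43), Ciart (-0.68 and -0.70), Rbm3 (-0.64 and -0.48), Tcap (-0.50 and -0.37) and Tnnt1 (-0.50 and -0.47). The PPARalpha target list had medians of 0.21 and 0.25, and the heat shock list 0.19 and 0.12. Several named genes had an unadjusted interaction p under 0.05, with no call after adjustment. Fewer probes had such a p than chance alone would give, so the genes that follow are not shown to differ between the litters. Tmem100 gave -0.56 in litters of LF dams and -0.21 (adjusted p = 0.549) in those of HF dams (interaction p = 0.00515 unadjusted). Ucp3 gave -0.24 and 0.44 (0.000107), Angptl4 0.15 and 0.84 (0.00491), Fkbp5 -0.17 and -0.64 (0.0103), Lpin1 -0.21 and 0.05 (0.000489), Pdp2 -0.37 and 0.12 (0.00151), and Isg15 0.25 and -0.077 (0.000255). For Angptl4 and Fkbp5 the change passed in litters of HF dams (adjusted p = 0.0173 and 0.00889) and not in those of LF dams. The adjusted p of the difference was 0.943 for each of these genes.

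**Figure D4:**
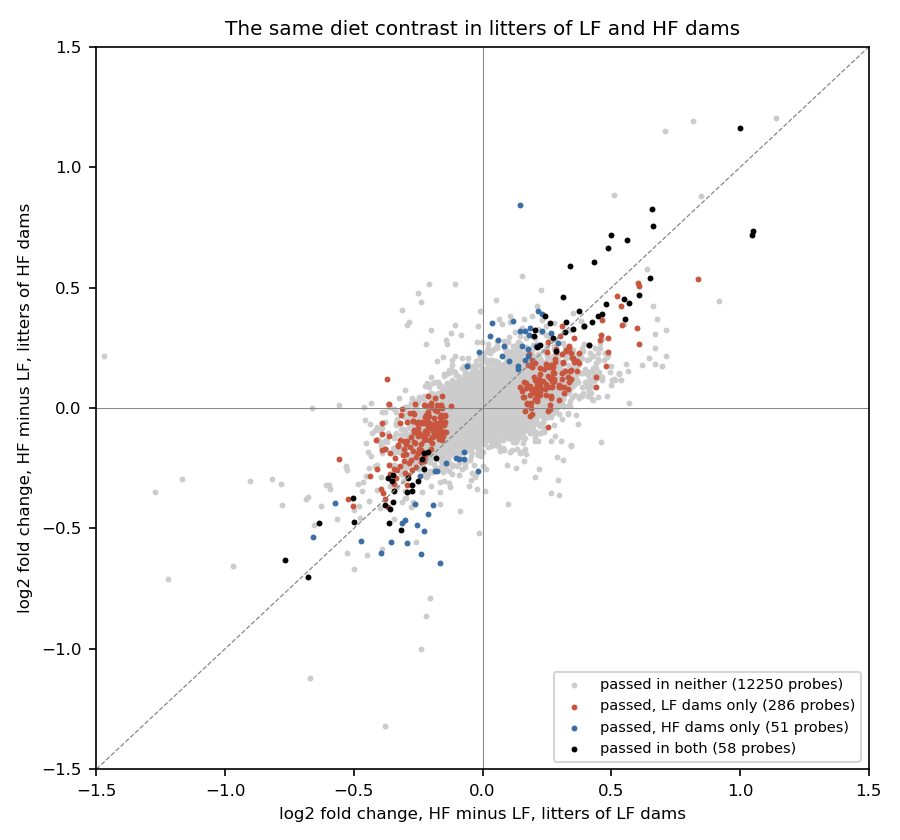
Log2 fold change of HF over LF diet after weaning in litters of LF dams (horizontal axis) and of HF dams (vertical axis) for the 12645 tested probes, 20 hearts on each axis and none shared. Black points (58 probes) passed in both, red points (286) in litters of LF dams and blue points (51) in litters of HF dams, and the dashed line marks equal changes.

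Within cages 4 and 11, which gave 5 animals to each diet, all 344 probes had the same sign as over the 20 animals that include them, and 6 probes passed with cage as a block (1717 at an unadjusted p under 0.05). In this subset Tfrc gave 1.24 (adjusted p = 0.00233 for its probe of smallest p there), Scn4b 1.12 (0.0115), Ephx2 0.66 (0.0394) and Acot1 0.59 (0.103). The number of calls depended on single animals. Without LF_HF heart 207 it was 146, the lowest, and without LF_LF heart 211 it was 663, the highest. Heart 207 was the most shifted LF_HF heart for 45 of the 163 higher and 51 of the 181 lower probes. Heart 211 was the LF_LF heart nearest to the LF_HF side for 52 higher and 38 lower probes. Of the 344 probes, 134 passed without each of the 20 animals and 17 without each of the 6 cages. Without the 5 hearts that carried liver or pancreas signal 10 probes passed, with 7 LF_HF and 8 LF_LF hearts left, among them those of Acot1 (2 probes), Cpt2, Slc25a20, Fbp2, Ephx2, Scn4b, Tmem100 and Ehd4. Without the 4 LF_LF hearts with an adipocyte score over 0.5, a choice made after seeing the data, 112 probes passed, 75 of them among the 344. All 344 had the same sign, on hearts that had also served to choose them. Of the 96 passed probes of the set of genes drawn up for the text, not all described, 37 passed without the 4 LF_LF hearts. Acot2 then gave 0.22 (adjusted p = 0.127), Acot3 0.11 (0.196), Phkg1 -0.23 (0.148), Abcc8 -0.18 (0.0935) and Prdx4 -0.20 (0.121).

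**Figure D5:**
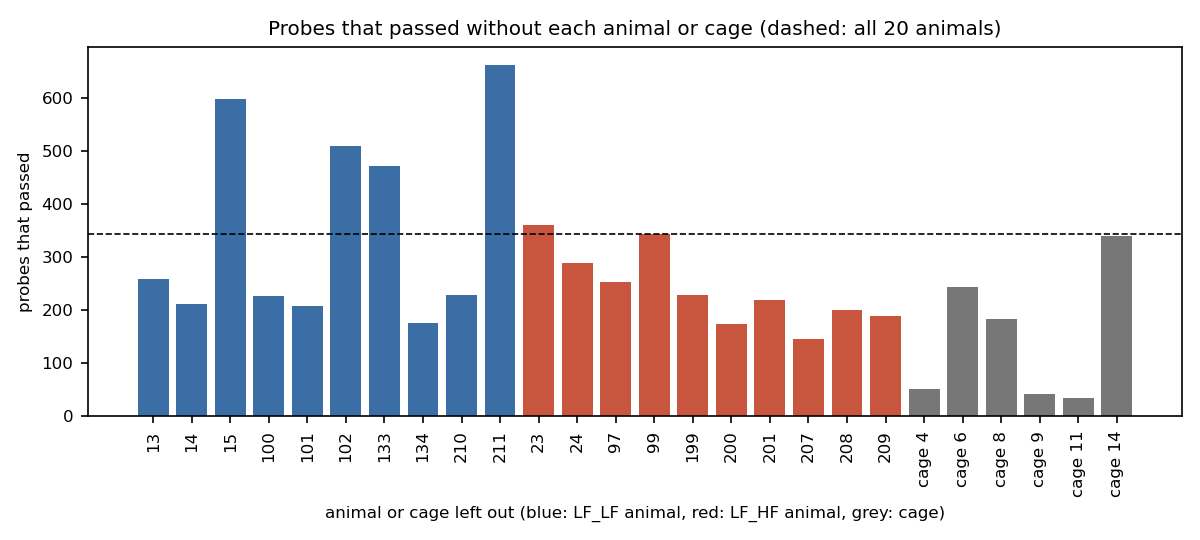
Number of probes that passed (vertical axis) when 1 animal or 1 cage was left out, LF_LF animals in blue, LF_HF animals in red and cages in grey. The dashed line is the 344 probes of all 20 animals, and the bars run from 33 without cage 11 to 663 without LF_LF animal 211.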

How the data were processed

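RNA of 40 mouse heart samples was measured on Illumina MouseRef-8 beadchips, 1 array per animal. The deposited table holds linear intensity values for 25697 probes. They were quantile-normalised by the authors in BeadStudio across all hearts, with background left in (release not stated). Intensities ran from 47.5 to 31454.1, array medians from 79.2 to 79.5, and the sorted columns differed by at most 1, so the table holds no measure of depth, and the number of arrays limits the precision. Probe symbols came from the platform annotation (23978 probes with 1 symbol, 0 with several, 1719 with none). Values were taken to log2, probes above the array median on at least 20 of 40 arrays were kept (12645), and LF_HF was compared with LF_LF on the 20 arrays with limma 3.58.1 in R 4.3.3 (trended empirical Bayes, adjusted p by Benjamini-Hochberg over all tested probes, threshold 0.05). A gene counts as passed by its probe of highest mean intensity in list counts. The interaction was fitted over 40 arrays. Hearts with a high adipocyte score were left out in an alternative added after seeing the data. Chips were not labelled, so array sets were taken from the first component of the untested probes (16.4% of variance). Body measures were compared by permutation tests in SciPy 1.17.1. The test was checked on simulated data. The genes named are the 15 highest and 15 lowest probes that passed, members of the gene lists that passed, a fixed set of heart metabolism genes, and others said to have been chosen after their values were seen. The gene lists and the comparison were chosen with earlier results of these data known. Nothing in the labels says how animals sharing a cage were housed later, and p-values measure the spread between animals. RefSeq promoters matched by symbol for 7120 of 8749 tested genes.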

Additional observations from a re-analysis of the deposited data

Results flagged for a closer look

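In 15 of the 242 groups of 10 hearts examined, the highest or lowest heart lay farther from its nearest neighbour, relative to the range of the group, than Dixon's limit for 10 values allows. Chance passes this limit in about 1 in 20 groups. LF_LF heart 14 had the highest level of Scn4b (543.4, next 321.2), Mcm2 (99.9, next 91.9) and Pdp2 (1665, next 1365.4). LF_LF heart 101 had the highest Tmem100 (696.3, next 564.7), the lowest Cirbp (190.3, next 254.5) and the highest liver score (3.65, next 1.28). LF_LF heart 133 had the highest Abcc8 (229.8, next 188.3) and Scd1 (20428.5, next 10951.9). LF_LF heart 134 had the lowest Pex11a (239.2, next 272.2), and LF_LF heart 211 the highest Rcan1 (217.2, next 159.7). The pancreas score was 6.64 in LF_LF heart 13 (next 0.616) and 4.79 in LF_HF heart 208 (next 0.223). Among LF_HF hearts, Abcc8 was highest in heart 199 (165.9, next 147.6), Acaa2 highest in heart 97 (3809.8, next 3236.7) and Cspg4, a pericyte marker, lowest in heart 207 (88.2, next 98.9).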

How the results depend on the processing

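The number of calls (344, with 163 higher and 181 lower) depended on which hearts entered more than on how the values were scaled. It stayed within 1.5 times of that number with a stricter filter on dim probes (413), with the lowest intensity subtracted (338), without the variance trend (352), with array weights (270), with all 40 arrays in the fit (420), with cage as a random block (274), with the array set as a term (274), with 1 probe per gene (267) and with each array centred (361). Without a filter on dim probes 146 passed (74 higher, 72 lower), and with the atrial score as a covariate 638 (266 higher, 372 lower). Over cage means 4 passed (4 higher, 0 lower), and within the cages that gave animals to both diets 6 (5 higher, 1 lower). Within the first array set 63 passed (41 higher, 22 lower), and within the second, of 3 LF_HF and 5 LF_LF hearts, 0 (0 higher, 0 lower). All 344 probes kept their sign within each array set and over cage means. Those fits used the same hearts by which the 344 were chosen, so a kept sign is not a repeat of the result. Without the 5 hearts with liver or pancreas signal 10 passed (8 higher, 2 lower), and in litters of HF dams 25 passed without such hearts, against 109. Without the 4 LF_LF hearts with an adipocyte score over 0.5, an alternative chosen after seeing the data, 112 passed (43 higher, 69 lower). Without 1 cage the calls were 51 for cage 4 (24 higher, 27 lower), 183 for cage 8 (93 higher, 90 lower), 42 for cage 9 (25 higher, 17 lower) and 33 for cage 11 (21 higher, 12 lower), and without cage 6 there were 103 higher calls. Without 1 animal they ran from 146 to 663 in all, from 73 to 346 higher and from 73 to 317 lower, the extremes being LF_HF animal 207 and LF_LF animal 211. They were also beyond 1.5 times without LF_LF animals 14 (212), 15 (598), 100 (227), 101 (207), 134 (175) and 210 (228) and LF_HF animals 199 (228), 200 (173), 201 (219), 208 (199) and 209 (189). The set of genes drawn up for the text, not all described, held 96 probes that passed. None of the 96 changed its sign in any alternative, each fitted on hearts by which they were chosen. The sign turned for 11 probes of this set that did not pass. Within the second array set this gave 0.0724 for the second Pmp22 probe, 0.00886 for Nr1d1, 0.901 for Scd1, -0.0364 for the third Pex11a probe, -0.0589 for an Acaa2 probe, 0.0256 for Ppara and 0.127 for Myh7, and within the first 0.0319 for Fkbp5 and 0.00968 for the second Cdc20 probe. In the cages with both diets Nr1d1 gave 0.0551, Angptl4 -0.0199 and Cdc20 0.0111, and over cage means Ppara gave 0.00333. Without the hearts with other tissue Cdc20 gave 0.0199 and Ppara 0.0148, and without those of high adipocyte score Pmp22 gave 0.107, Scd1 0.959 and Adipoq 0.156. Without 1 cage Myh7 gave 0.0386 (cage 4), 0.00654 (cage 6) and 0.00721 (cage 9), Pmp22 0.0406 (cage 6), Angptl4 -0.0418 and Ppara 0.0135 (cage 8), and Ppara 0.0204 (cage 11). Without 1 animal Pmp22 ran from -0.108 to 0.0105, Ppara from -0.0316 to 0.0156 and Myh7 from -0.0593 to 0.0263. The interaction was refitted without a filter, without the variance trend, with cage as a random block, with the array set as a term and without hearts with other tissue, and gave 0 calls in limma each time. The causes were not tested. No paired analysis was possible because each animal has a number of its own, other than the fit above with cage as a block. Dim probes near the array median understate a fold, and leaving out hearts also leaves fewer samples.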
